A study of Mus musculus with 15 samples.

Results

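The 8 genes described here encode the type 2 cytokines and growth factors of group 2 innate lymphoid cells (ILC2): *Il4*, *Il5*, *Il13*, *Il9*, *Il3*, *Il6*, *Csf2* and *Areg*. They were chosen by name, and each has 1 entry among the 23846 entries of the table of IL-33- and PBS-injected mice and among the 23529 usable entries of the table of reporter mice. The value of a gene is its FPKM, the fragments assigned to it scaled to transcript length in kilobases and to the number of mapped fragments, so levels of different genes can be set side by side within a table. The tables came from different sequencers and were analysed separately.

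ILC2 are tissue lymphocytes without antigen receptors that respond to IL-33, an alarm signal of damaged epithelium, through the receptor chain ST2. Of their products, IL-5 sustains eosinophils, IL-13 drives mucus production and smooth muscle contraction, and IL-4 directs T helper 2 and IgE responses. GM-CSF, encoded by *Csf2*, and IL-3 act on myeloid cells, IL-9 on mast cells and on ILC2 themselves, IL-6 on many cells through gp130, and amphiregulin, encoded by *Areg*, on the EGF receptor of epithelium during repair.

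The cells were sorted from pools of adult mice of either sex and fall into 6 groups. ILC2IL-33 (2 libraries, named WT and Expand) and ILC2PBS (3 libraries, named 1, 2 and nA) were CD45+Thy-1.2+Lin-ST2+ cells from lungs of C57BL/6 mice given daily intraperitoneal IL-33 or its vehicle. ILC210 (3 libraries, 2, 4 and 8) and ILC2act (3 libraries, 1, 3 and 7) were lung ILC2 with and without surface Thy-1.1 from IL-33-injected 10BiTFoxp3GFP mice, in which Thy-1.1 inserted in an *Il10* BAC transgene reports *Il10* and GFP in the *Foxp3* locus reports *Foxp3*. Treg10+ (2 libraries, 6 and 10) and Treg10- (2 libraries, 5 and 9) were Thy-1.1+ and Thy-1.1- regulatory T cells from spleens of such IL-33-injected mice, so no reporter library comes from vehicle-injected mice, and tissue differs along with cell type between the ILC2 and Treg groups. The source field of the Treg samples names lung ILC2, but *Foxp3* was at 88.4 to 112 FPKM in the 4 Treg libraries and at most 0.0955 FPKM in the 6 reporter ILC2 libraries. *Il10* was at 135 ± 21.0 FPKM in ILC210 and 13.2 ± 3.77 FPKM in ILC2act (SD, n = 3 each), and at 24.2 to 31.0 FPKM in Treg10+ and 0.572 to 1.06 FPKM in Treg10-, in the order of the reporter labels.

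Transcripts of other lung cells were present in the ILC2 sorts and moved with the groups. The 8 measured markers of alveolar type 2 epithelium summed to 97.5 to 172 FPKM in ILC2IL-33 and 4728 to 13723 FPKM in ILC2PBS, and to 5381 to 8785 FPKM in ILC210 and 419 to 522 FPKM in ILC2act. The 6 measured macrophage markers summed to 28.3 to 30.8 FPKM in ILC2IL-33 and 1722 to 3519 FPKM in ILC2PBS, and to 599 to 1373 FPKM in ILC210 and 48.3 to 76.9 FPKM in ILC2act. The 9 endothelial markers summed to 51.0 to 70.5 FPKM in ILC2IL-33 and 824 to 1674 FPKM in ILC2PBS, and to 421 to 608 FPKM in ILC210 and 66.1 to 68.3 FPKM in ILC2act. The 8 fibroblast markers summed to 24.1 to 24.4 FPKM in ILC2IL-33 and 485 to 884 FPKM in ILC2PBS. They summed to 201 to 532 FPKM in ILC210 and 19.3 to 44.0 FPKM in ILC2act. The 4 B cell markers summed to 34.4 to 35.7 FPKM in ILC2IL-33 and 39.3 to 52.3 FPKM in ILC2PBS. Their sums were 123 to 198 FPKM in ILC210 and 48.9 to 77.7 FPKM in ILC2act. Of mast cells and basophils, which also make IL-4, IL-13 and IL-6, the genes *Mcpt4*, *Mcpt8*, *Tpsb2*, *Ms4a2*, *Prss34* and *Cma1* were each at most 1.67 FPKM in every ILC2 library. *Fcer1a* was at 0.305 to 1.30 FPKM in ILC2IL-33 and 0 to 0.750 FPKM in ILC2PBS, and at 0 to 0.455 FPKM in ILC210 and 0.373 to 2.51 FPKM in ILC2act. The 11 markers of that list, which include *Kit* and *Cpa3*, summed to 67.4 to 73.4 FPKM in ILC2IL-33 and 180 to 216 FPKM in ILC2PBS, and to 91.2 to 99.7 FPKM in ILC210 and 106 to 136 FPKM in ILC2act. Of this list 4 were tested in each comparison, with 3 called lower after IL-33 and 2 called higher in ILC210. *Gata2* was at 0.606 to 0.843 FPKM in ILC2IL-33 and 18.3 to 34.8 FPKM in ILC2PBS, and at 8.43 to 15.3 FPKM in ILC210 and 0.149 to 1.78 FPKM in ILC2act, and *Hdc* at 0.647 to 1.85 FPKM in ILC2IL-33 and 6.86 to 16.1 FPKM in ILC2PBS, and at 5.08 to 8.46 FPKM in ILC210 and 1.61 to 1.67 FPKM in ILC2act. The 7 measured T cell markers, most of whose sum was *Cd3g*, summed to 63.4 to 104 FPKM in ILC2IL-33 and 94.3 to 130 FPKM in ILC2PBS, and to 23.6 to 31.2 FPKM in ILC210 and 95.8 to 132 FPKM in ILC2act, with 2 of 5 tested called lower after IL-33 and 2 of 4 called lower in ILC210. *Cd4*, *Cd5* and *Cd8a* were at most 1.21 FPKM in any ILC2 library. Of eosinophil genes, *Prg2* was at 5.16 to 36.2 FPKM in ILC210 and 0.0812 to 0.483 FPKM in ILC2act. *Epx* was at 0.439 to 3.10 FPKM in ILC210 and at most 0.0247 FPKM in ILC2act. *Ccr3* went the other way, with 3.51 to 4.01 FPKM in ILC210 and 6.55 to 10.5 FPKM in ILC2act. In ILC2IL-33 and ILC2PBS, *Prg2* and *Epx* were at most 0.868 FPKM. The 12 ILC2 markers summed to 4378 to 4523 FPKM in ILC2IL-33 and 2232 to 3397 FPKM in ILC2PBS, and to 2759 to 3364 FPKM in ILC210 and 3964 to 4282 FPKM in ILC2act. The part of other cells in the results below was not tested, and in such sorted pools fewer expressing cells and less RNA per cell cannot be told apart.

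All lung ILC2 libraries held 6 of the 8 transcripts at clear levels. *Areg* was among the 195 most abundant of all entries in each of the 11 ILC2 libraries, and its best rank was 68, in ILC210 library 4 and in ILC2PBS library nA. In ILC2PBS the order of mean levels was *Areg*, *Csf2*, *Il13*, *Il5*, *Il4* and *Il6*, of which *Il13* and *Il5* differed by less than their spread (109 ± 60.8 and 82.9 ± 32.4 FPKM, SD, n = 3), as did *Il4* and *Il6* (7.29 to 15.1 and 8.95 to 10.6 FPKM). In ILC2IL-33 *Il13* stood second after *Areg*, and in the reporter libraries *Il5* was above *Il13* in all 6 ILC2 libraries. The FPKM of *Il13* divided by that of *Il5* was 0.136 to 0.261 in ILC210 and 0.209 to 0.232 in ILC2act, but 1.93 and 3.26 in ILC2IL-33 and 1.07 to 1.62 in ILC2PBS. The tables differ in mouse strain and sequencer, which cannot be told apart here.

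After IL-33, 3 of the 8 genes were higher and 1 was lower than in vehicle. *Il6*, *Il4* and *Il13* rose, *Csf2* fell, *Il5*, *Areg* and *Il3* did not pass the test, and *Il9* was too low to be tested. FPKM below 1 were set to 1, log2 values were tested with limma, and a gene was called at a Benjamini-Hochberg adjusted p under 0.05 over all genes tested with a fold of at least 2. Of 12565 genes tested, 8.22% were called higher and 18.0% lower. The median log2 fold change of the 7 genes tested was 1.10, and that of all genes tested was -0.06. The Y-linked gene *Ddx3y* was at 5.47 and 8.25 FPKM in ILC2PBS libraries 1 and 2 and at most 0.153 FPKM in both ILC2IL-33 libraries and in ILC2PBS library nA. The comparison was therefore repeated without ILC2PBS libraries 1 and 2, and 2 genes were then called, *Il6* and *Il3*. With that 1 PBS library left, the log2 fold changes were 2.04 for *Il4*, -1.17 for *Csf2* and 1.28 for *Il13* (limma, adjusted p = 0.213, 0.379 and 0.0945), where all libraries gave 2.55, -1.16 and 2.11.

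*Il6*, a cytokine of acute inflammation, had 72.2 FPKM in ILC2IL-33 library WT and 67.6 FPKM in library Expand, against 10.6, 8.95 and 9.56 FPKM in ILC2PBS libraries 1, 2 and nA. The groups were far apart and each was tight. Its log2 fold change was 2.85 with a standard error of 0.17 (limma, adjusted p = 4.92e-05), and its call held in all 14 alternative settings.

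*Il4*, the T helper 2 inducing cytokine, had 85.9 FPKM in ILC2IL-33 library WT and 44.6 FPKM in library Expand, against 10.6, 7.29 and 15.1 FPKM in ILC2PBS libraries 1, 2 and nA. The IL-33 libraries were further from each other than the PBS libraries were, but both lay above all of them. The log2 fold change was 2.55 with a standard error of 0.37 (limma, adjusted p = 0.00159). Without ILC2IL-33 library WT, with the lone library assumed to vary like the other group, the call was lost at a log2 fold change of 2.08 (limma, adjusted p = 0.0842, range over alternatives 0.000574 to 0.213).

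*Il13*, the mucus-inducing cytokine, had 443 FPKM in ILC2IL-33 library WT and 394 FPKM in library Expand, against 104, 50.6 and 172 FPKM in ILC2PBS libraries 1, 2 and nA. The IL-33 libraries lay close together and every PBS library lay below them. The log2 fold change was 2.11 with a standard error of 0.46 (limma, adjusted p = 0.00985). With library WT or Expand left out the log2 fold change was 2.03 or above, but the call was lost (limma, adjusted p = 0.194 and 0.161, range over alternatives 0.00229 to 0.194).

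*Csf2* went the other way. It had 184 FPKM in ILC2IL-33 library WT and 89.6 FPKM in library Expand, against 369, 223 and 289 FPKM in ILC2PBS libraries 1, 2 and nA. The groups did not overlap, but the higher IL-33 library lay nearer to PBS library 2 than to the other IL-33 library. The log2 fold change was -1.16 with a standard error of 0.35 (limma, adjusted p = 0.0365). The call was lost whichever of the 5 libraries was left out, with log2 fold changes of -0.64 without Expand, -1.68 without WT, -0.98 without PBS 1, -1.34 without PBS 2 and -1.16 without PBS nA (adjusted p from 0.0670 to 0.285 from limma, range over all alternatives 0.0240 to 0.379).

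*Il5*, the eosinophil cytokine, had 229 FPKM in ILC2IL-33 library WT and 121 FPKM in library Expand, against 96.9, 45.9 and 106 FPKM in ILC2PBS libraries 1, 2 and nA. The groups did not overlap, although library Expand was close to PBS library nA. Its log2 fold change of 1.10 (95% interval 0.12 to 2.07) did not pass (limma, adjusted p = 0.0802). *Areg*, the epithelial growth factor, had 929 and 501 FPKM in ILC2IL-33 libraries WT and Expand, against 483, 316 and 696 FPKM in ILC2PBS libraries 1, 2 and nA, and these groups overlapped (log2 fold change 0.53, 95% interval -0.42 to 1.48, limma adjusted p = 0.351). Without PBS libraries 1 and 2 the sign of the *Areg* difference turned, to -0.03.

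*Il3*, a growth factor of mast cells and basophils, was near the lower end of the measured range. It had 0.375 and 0.466 FPKM in ILC2IL-33 libraries WT and Expand, against 2.40, 1.30 and 2.89 FPKM in ILC2PBS libraries 1, 2 and nA. All PBS libraries lay above both IL-33 libraries. On the floored scale its log2 fold change was -1.06 (95% interval -1.90 to -0.22, limma adjusted p = 0.0556), which missed the threshold. With log2(FPKM + 0.1) in place of the floor it was -2.08 and called (limma, adjusted p = 0.00606), and without PBS library 2 it was -1.40 and called (limma, adjusted p = 0.00754), with a range over alternatives of 0.000558 to 0.286. *Il9* was listed at 0 in both ILC2IL-33 libraries and at 0.388, 0 and 0 FPKM in ILC2PBS libraries 1, 2 and nA.

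**Figure D1:**
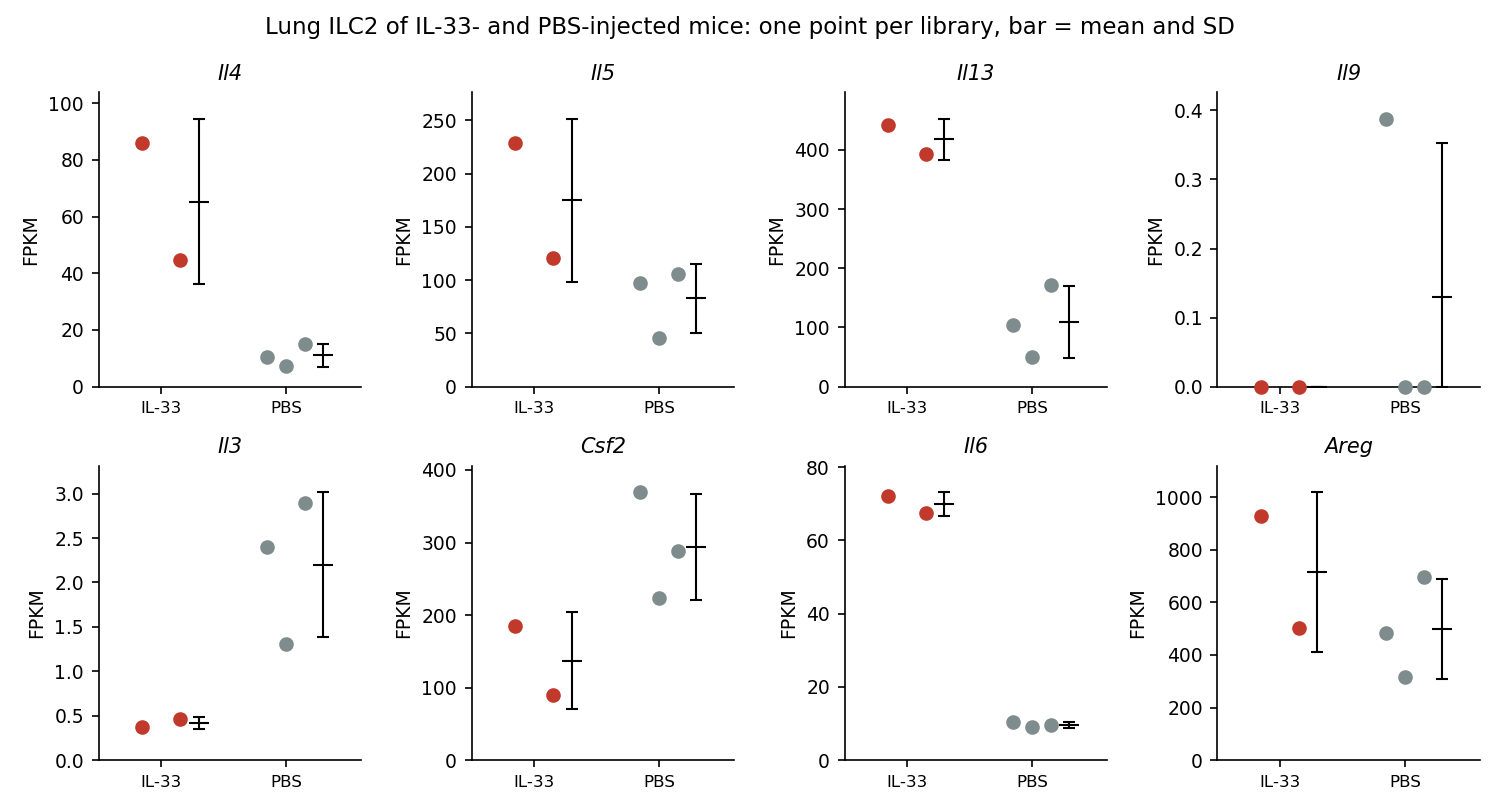
FPKM of the 8 genes (vertical axes, linear, each from 0) in lung ILC2 of IL-33-injected mice (left, 2 libraries) and PBS-injected mice (right, 3 libraries), 1 point per library, with the mean and SD as bars cut at 0. Both IL-33 libraries lie above every PBS library for *Il4*, *Il5*, *Il13* and *Il6* and below every one for *Csf2* and *Il3*, and the groups overlap for *Areg*.

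The start-site regions of *Il4*, *Il13* and *Il6*, the 3 genes called higher after IL-33, are shown because members of the NFAT, NF-kB, AP-1 and GATA families are the best known activators of these genes. Each window runs from upstream of the RefSeq start site to shortly after it (GRCm38.p6), 5′ to 3′ on the gene's strand. Capitals mark matches on both strands to the GATA motif (the letters GATA after A or T and before A or G), the NFAT motif (GGAAAA), the AP-1 motif (TGANTCA) and the NF-kB motif (GGG and CC with 5 bases of any kind between them), and on the gene's strand to the TATA box (TATAAA or TATATA).
Il4 (chr11:53618616-53618915, minus strand): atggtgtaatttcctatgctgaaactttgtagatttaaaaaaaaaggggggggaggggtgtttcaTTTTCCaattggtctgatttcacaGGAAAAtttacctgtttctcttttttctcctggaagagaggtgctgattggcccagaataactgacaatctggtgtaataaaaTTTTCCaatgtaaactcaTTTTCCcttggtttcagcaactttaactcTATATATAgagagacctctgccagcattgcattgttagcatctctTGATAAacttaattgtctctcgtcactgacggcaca
Il13 (chr11:53634653-53634952, minus strand): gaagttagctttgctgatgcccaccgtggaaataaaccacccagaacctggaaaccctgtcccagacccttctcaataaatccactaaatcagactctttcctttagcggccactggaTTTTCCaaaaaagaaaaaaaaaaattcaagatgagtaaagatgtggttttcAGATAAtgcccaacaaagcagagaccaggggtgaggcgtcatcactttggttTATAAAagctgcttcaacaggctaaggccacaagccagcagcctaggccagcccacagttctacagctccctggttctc
Il6 (chr5:30012864-30013163, plus strand): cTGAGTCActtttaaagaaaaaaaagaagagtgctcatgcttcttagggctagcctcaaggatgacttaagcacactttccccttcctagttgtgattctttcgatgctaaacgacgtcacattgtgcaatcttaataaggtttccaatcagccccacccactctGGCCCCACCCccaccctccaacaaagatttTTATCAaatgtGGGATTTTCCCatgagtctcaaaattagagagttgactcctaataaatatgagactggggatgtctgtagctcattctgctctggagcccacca
RefSeq has a second *Il4* start site (window chr11:53617289-53617588, not printed), with 1 GATA match and 0 matches to the other motifs. The *Il4* window shown, at the start of the entry in the files, held 4 NFAT matches, a number reached in 0.0578% of all 32851 promoter windows of that length, 1 GATA match after the start site, and a pair of overlapping TATA matches. The *Il13* window held 1 NFAT, 1 GATA and 1 TATA match. The *Il6* window held 1 AP-1 match, 1 GATA match, 1 NFAT match and 3 NF-kB matches, of which the NFAT match and 2 of the NF-kB matches overlap in a single run. Of all windows, 29.8% held a GATA match, 23.4% an NFAT match, 7.81% an AP-1 match, 50.8% an NF-kB match and 12.5% a TATA match, so a match by itself is common. The RefSeq window of *Csf2* is not shown because the start site of its GENCODE transcript lies 232 bases further downstream, outside the window.

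Within IL-33-injected reporter mice, 1 of the 8 genes differed with the *Il10* reporter in ILC2. *Csf2* was lower in ILC210 than in ILC2act, whereas *Il4*, *Il5*, *Il13*, *Il6* and *Areg* did not pass the test, and *Il3* and *Il9* were too low to be tested. This comparison asks how ILC2 that express *Il10* differ from activated ILC2 that do not. Of 11564 genes tested, 1.05% were called lower in ILC210 and 9.24% higher. The median log2 fold change of the 6 genes tested was -0.26, and that of all genes tested was 0.03.

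*Csf2* had 44.7, 99.1 and 70.5 FPKM in ILC210 libraries 2, 4 and 8, against 465, 596 and 633 FPKM in ILC2act libraries 1, 3 and 7. The highest ILC210 library was far below the lowest ILC2act library. The log2 fold change was -3.04 with a standard error of 0.26 (limma, adjusted p = 7.9e-05), an 8.25-fold lower level, and with any 1 library left out it lay between -3.32 and -2.74 and stayed called. In a per-gene equal-variance test on FPKM, as in the methods of the study, the estimate was -2.98 and the call was lost (adjusted p = 0.0642, range over alternatives with limma 1.08e-06 to 0.0194). Among all entries of a library *Csf2* ranked 906 to 2156 in ILC210 and 146 to 198 in ILC2act.

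Ratios within a library were taken to set *Csf2* against *Il13*, *Il5* and *Areg* on the same scale. *Csf2* FPKM divided by *Il13* FPKM was 0.647, 1.28 and 1.18 in ILC210 libraries 2, 4 and 8, against 5.44, 6.84 and 7.21 in ILC2act libraries 1, 3 and 7. Divided by *Il5* FPKM it was 0.169 to 0.237 in ILC210 and 1.26 to 1.51 in ILC2act, and divided by *Areg* FPKM 0.0504 to 0.0907 in ILC210 and 0.568 to 0.903 in ILC2act. None of these ratios overlapped between ILC210 and ILC2act. The same ratio to *Il13* was 0.417 and 0.228 in ILC2IL-33 and 3.56, 4.42 and 1.68 in ILC2PBS.

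As a share of the summed FPKM of the 8 genes, *Csf2* made up 3.18 to 5.08% in ILC210 and 24.5 to 32.3% in ILC2act. *Areg* made up 56.0 to 63.1% in ILC210 and 35.7 to 43.2% in ILC2act. *Il13* held nearly the same share in both, 3.96 to 4.92% in ILC210 and 4.48 to 4.61% in ILC2act. Since the shares add up to a fixed whole, the lower *Csf2* share by itself raises those of the other genes. The FPKM of *Il13* was 59.5 to 77.3 in ILC210 and 85.5 to 87.8 in ILC2act. In the other table *Il13* made up 22.8 and 32.3% in ILC2IL-33 and 7.74 to 13.3% in ILC2PBS, and *Csf2* 9.49 and 7.36% in ILC2IL-33 and 22.4 to 34.3% in ILC2PBS.

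**Figure D2:**
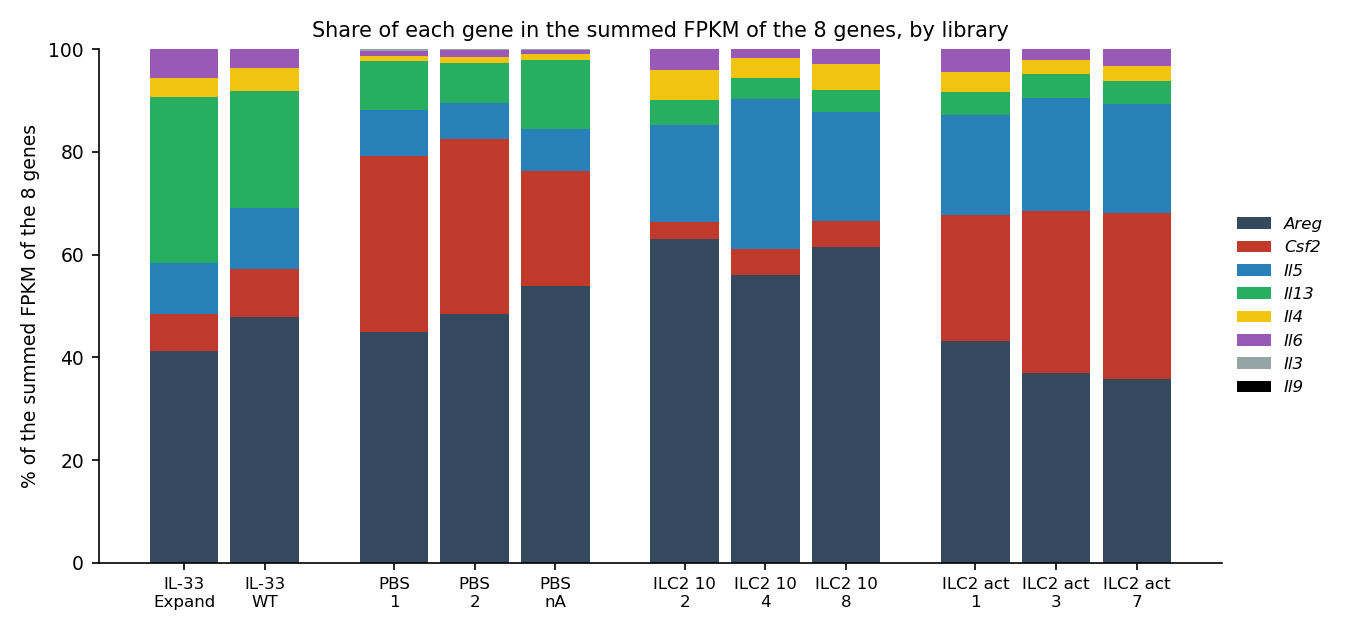
Share of each of the 8 genes in their summed FPKM (vertical axis, percent) in each ILC2 library, with ILC2IL-33 and ILC2PBS from one table and ILC210 and ILC2act from the other. The *Csf2* share is 3.18 to 5.08% in ILC210 and 24.5 to 32.3% in ILC2act, and *Il3* and *Il9* are too small to be seen.

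The other genes of the list stayed within small differences. *Il13* had 69.2, 77.3 and 59.5 FPKM in ILC210 libraries 2, 4 and 8, against 85.5, 87.1 and 87.8 FPKM in ILC2act libraries 1, 3 and 7, with no overlap, and its log2 fold change was -0.35 (95% interval -0.59 to -0.10, limma adjusted p = 0.0642). *Il4* had 82.6, 79.0 and 70.1 FPKM in ILC210, against 75.1, 52.5 and 58.4 FPKM in ILC2act, in the same library order, and the groups overlapped (log2 fold change 0.33, 95% interval 0.01 to 0.65, limma adjusted p = 0.165). These 2 genes, which lie 12.7 kb apart, thus had differences of opposite sign, neither of them past the test.

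*Il5* had 265, 571 and 298 FPKM in ILC210 libraries 2, 4 and 8, against 368, 417 and 418 FPKM in ILC2act libraries 1, 3 and 7. ILC210 library 4 lay above all ILC2act libraries and the other two below them (log2 fold change -0.17, 95% interval -0.75 to 0.41, limma adjusted p = 0.739), and without ILC210 library 2 the sign turned, to 0.04. *Il6* had 56.9, 31.7 and 40.3 FPKM in ILC210, against 83.3, 38.8 and 62.2 FPKM in ILC2act (log2 fold change -0.49, 95% interval -1.14 to 0.17, limma adjusted p = 0.331). *Areg* had 888, 1093 and 863 FPKM in ILC210, against 818, 700.1 and 701 FPKM in ILC2act, with every ILC210 library above every ILC2act library (log2 fold change 0.35, 95% interval 0.05 to 0.66, limma adjusted p = 0.124). The intervals of *Il13*, *Il4*, *Il5* and *Areg* lie within a 2-fold difference, and that of *Il6* reaches beyond it on the lower side.

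ILC2 libraries with consecutive numbers varied together, and within each of the 3 such pairs (2 with 1, 4 with 3, 8 with 7) the differences can be read directly. *Csf2* in ILC210 was 0.0962, 0.166 and 0.111 times its level in the paired ILC2act library. *Il6* was 0.683, 0.816 and 0.649 times and *Il13* 0.809, 0.887 and 0.678 times, below 1 in all 3 pairs. *Il4* was 1.10, 1.51 and 1.20 times and *Areg* 1.09, 1.56 and 1.23 times, above 1 in all 3 pairs. *Il5* was 0.721, 1.37 and 0.713 times. With the pair as a replicate block the adjusted p-values from limma were 0.0037 for *Il6*, 0.021 for *Il13*, 0.035 for *Il4*, 0.042 for *Areg* and 0.53 for *Il5*. All 5 stayed under the fold threshold. These pairs were chosen from correlations in these same libraries. With the tag in the library title as the block, the adjusted p-values from limma were 0.0875 for *Il6*, 0.0509 for *Il13*, 0.155 for *Il4*, 0.130 for *Areg* and 0.629 for *Il5*.

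*Il3* was listed at 0 in the 3 ILC210 libraries and at 0.211, 0.160 and 0.570 FPKM in ILC2act libraries 1, 3 and 7. *Il9* was listed at 0 in the 3 ILC210 libraries and at 0, 0.155 and 0.184 FPKM in the ILC2act libraries. Low FPKM fell on steps, and for a transcript of the length of *Il9* the lowest step was 0.154 FPKM in ILC2act library 3 and 0.183 FPKM in library 7, so that each of these *Il9* values stands for about 1 read. The receptor of IL-9 was well above this level: *Il9r* was at 33.4 ± 5.39 FPKM in ILC210 and 46.5 ± 2.08 FPKM in ILC2act (SD, n = 3 each), and 72.2 ± 13.3 FPKM in ILC2IL-33 (SD, n = 2) and 74.1 ± 30.6 FPKM in ILC2PBS (SD, n = 3).

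**Figure D3:**
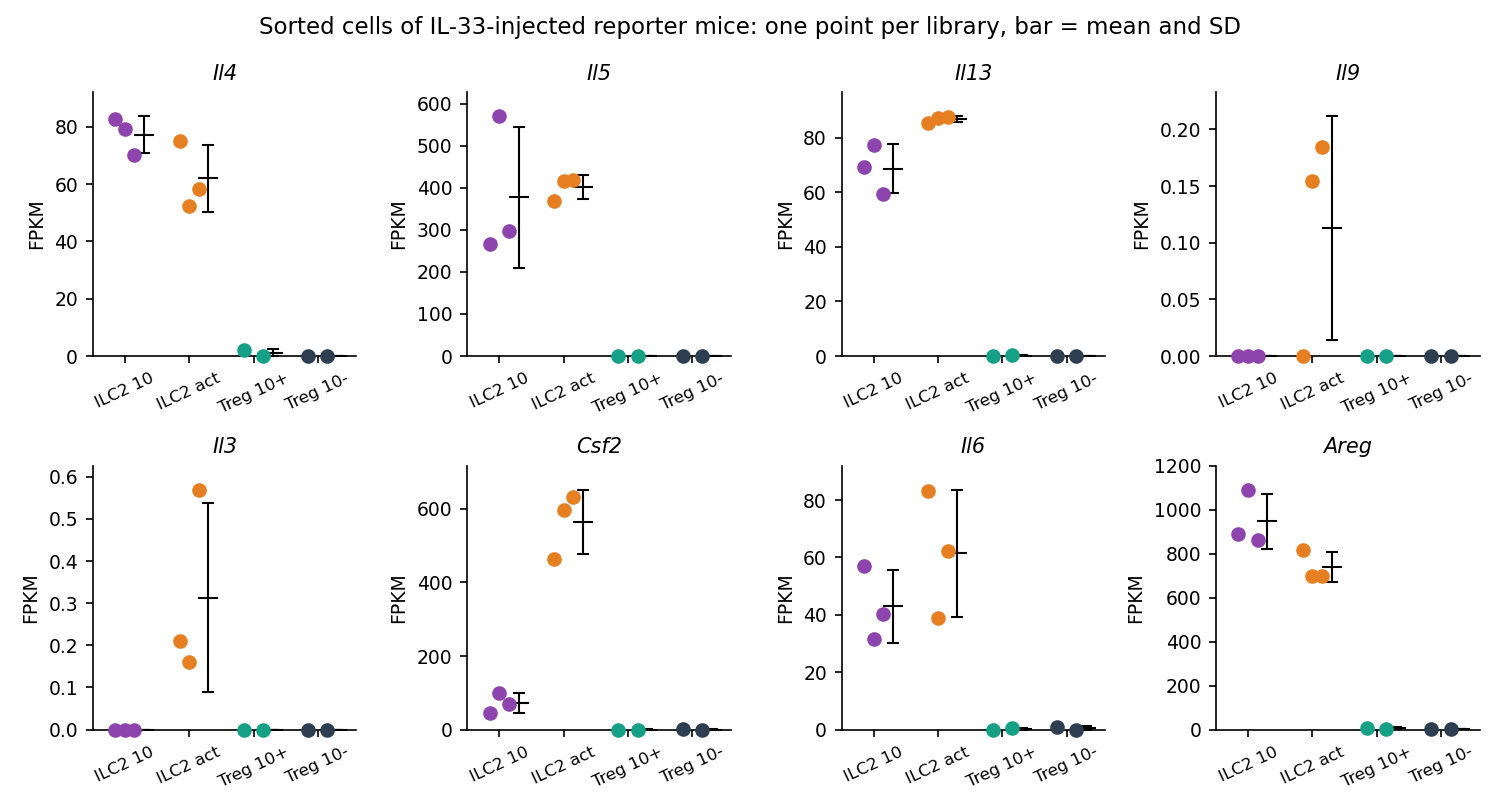
FPKM of the 8 genes (vertical axes, linear, each from 0) in ILC210, ILC2act (3 libraries each), Treg10+ and Treg10- (2 libraries each), 1 point per library, with the mean and SD as bars cut at 0. *Csf2* separates ILC210 (44.7 to 99.1 FPKM) from ILC2act (465 to 633 FPKM), the other abundant genes lie at like levels in both, and all 8 are near 0 in the Treg libraries on these axes.

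Since *Csf2* was called lower in both ILC2 comparisons, a stretch of its messenger RNA is shown. The pentamer ATTTA in 3′ untranslated regions is the core of AU-rich elements, which shorten the life of many cytokine transcripts. Shown for 5 of the genes is the 30-base stretch of the GENCODE 3′ untranslated region with most ATTTA copies, read in the 5′ to 3′ direction with the copies in capitals.
Csf2: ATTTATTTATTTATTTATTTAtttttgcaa
Areg: ATTTATTTAatATTTAagtgttATTTAttt
Il4: ATTTAtatATTTAtaattcataaaataaaa
Il5: ATTTAtATTTAtgtcctgtagtcagttaaa
Il13: ATTTAttatggttgtgtgttATTTAaatga
*Csf2* had 5 overlapping copies in its stretch, a density that 0.245% of the 20787 genes with such a region reach, and 9 copies in its whole region of 317 bases. *Areg* had 4, which 0.558% of genes reach, and *Il4*, *Il5* and *Il13* had 2 each, which 18.2% of genes reach. Of the genes not shown, *Il9* had 3, which 2.47% reach, *Il6* had 2, which 18.2% reach, and *Il3* had 1, which 64.6% reach. Longer regions hold denser stretches by length alone, and the regions of the genes shown ran from 104 bases for *Il4* to 1092 for *Il5*. *Csf2* and *Areg*, at the top by this count, had differences of opposite sign in ILC210, of which that of *Areg* did not pass the test.

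In splenic Treg cells 1 of the 8 genes was high enough to be tested. *Areg* had 8.67 and 3.48 FPKM in Treg10+ libraries 6 and 10, against 3.52 and 1.43 FPKM in Treg10- libraries 5 and 9. Libraries that share a tag in their title differed by nearly the same factor, 2.46 for 6 over 5 and 2.43 for 10 over 9, while libraries of different tags overlapped. The log2 fold change was 1.29 (95% interval -0.06 to 2.64, limma adjusted p = 0.379) without the pairing and was called with the title tag as a replicate block (limma, adjusted p = 0.00138), with a range over alternatives of 0.00138 to 1. That block leaves 1 residual degree of freedom per gene. Without the block 1.37% of the 10837 genes tested were called, and *Areg* was not among them. The share of all genes called with the block is not given here, so how rare such a call is there cannot be read. *Il4* had 2.11 FPKM in Treg10+ library 6 and was listed at 0 in the other 3 Treg libraries. *Il5*, *Il13*, *Il6* and *Csf2* were at most 0.952 FPKM in any Treg library, and *Il3* and *Il9* were listed at 0 in all 4. Markers of other cells were present here too. Macrophage markers summed to 129 to 171 FPKM in Treg10+ and 20.2 to 48.3 FPKM in Treg10-, and B cell markers to 282 to 355 and 144 to 242 FPKM. Mast cell and basophil markers summed to 2.23 to 18.7 FPKM in Treg10+ and 1.21 to 3.54 FPKM in Treg10-. The part of these cells in the low *Areg* and *Il4* values was not tested.

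*Areg* was higher in lung ILC2 than in splenic Treg cells in both reporter-matched comparisons. In ILC210 against Treg10+, *Areg* averaged 948 ± 126 FPKM in ILC210 (SD, n = 3) and 6.07 ± 3.67 FPKM in Treg10+ (SD, n = 2), and the log2 difference was 7.42 with a standard error of 0.40 (limma, adjusted p = 4.34e-07). In ILC2act against Treg10-, it averaged 740 ± 68.1 FPKM in ILC2act (SD, n = 3) and 2.48 ± 1.48 FPKM in Treg10- (SD, n = 2), and the log2 difference was 8.36 with a standard error of 0.40 (limma, adjusted p = 2.49e-07). *Il4*, *Il5*, *Il13*, *Il6* and *Csf2* entered these comparisons only through the ILC2 libraries, since their Treg means lay at or near the floor or under it, so their calls were fixed by the filter and are given as levels only. *Il6*, the lowest of the 5 by mean, had 43.0 ± 12.8 FPKM in ILC210 and 61.4 ± 22.3 FPKM in ILC2act (SD, n = 3 each). Of 12475 genes tested, 12.5% were called higher and 7.25% lower in ILC210 than in Treg10+, and 7.89% higher and 8.53% lower in ILC2act than in Treg10-.

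Whether the change with the reporter differed between ILC2 and Treg cells could be tested for *Areg* alone, the 1 gene above the floor in all libraries of both. Its log2 change between ILC210 and ILC2act minus that between Treg10+ and Treg10- was -0.94 (95% interval -2.20 to 0.32, limma adjusted p = 0.433), where 8.10% of 12475 genes were called in either direction. *Csf2* had 0 and 0.133 FPKM in Treg10+ libraries 6 and 10 and 0.253 and 0 FPKM in Treg10- libraries 5 and 9, all under the floor, so the difference only repeats the ILC2 change.

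**Figure D4:**
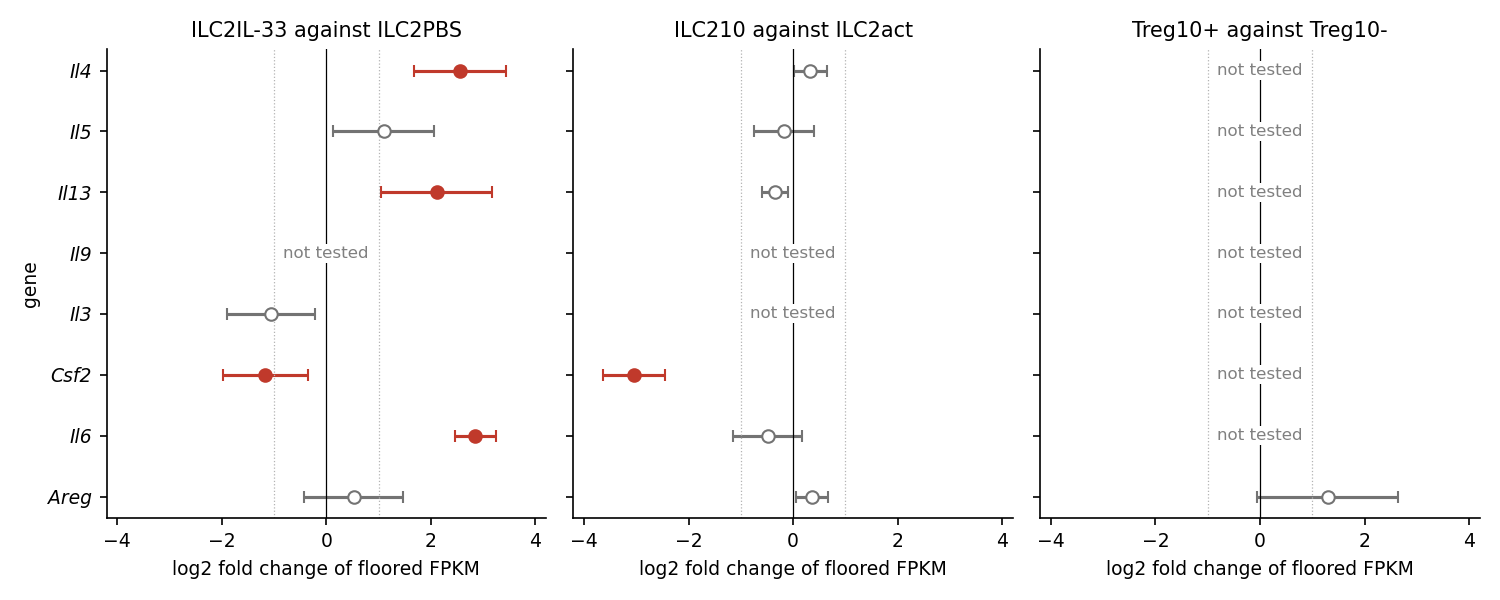
Log2 fold changes of floored FPKM (horizontal axes) with 95% intervals for the 8 genes in 3 comparisons. Filled red points are called and open grey points are not, and dotted lines mark a 2-fold difference. *Csf2* is called lower in both ILC2 comparisons (-1.16 and -3.04), and *Il4*, *Il13* and *Il6* are called higher after IL-33.

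Of the 8 genes, 5 lie together on chromosome 11 (GRCm38), in an interval of 16 entries between *Kif3a* and *Acsl6*. *Il4* (53612461 to 53618665), *Il13* (53631323 to 53634702) and *Il5* (53720794 to 53725103) form one group, with the DNA repair gene *Rad50* (53649519 to 53707319), which holds their locus control region in mice, between *Il13* and *Il5*. *Csf2* (54247270 to 54249899) and *Il3* (54265085 to 54267279) lie 15.2 kb from each other and 522 kb beyond *Il5*. After IL-33 the signs of the log2 fold changes followed this split: 2.55, 2.11 and 1.10 for *Il4*, *Il13* and *Il5*, and -1.16 and -1.06 for *Csf2* and *Il3*, of which those of *Il5* and *Il3* did not pass.

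Of the 11 entries of this interval other than the 5 genes, 7 were tested after IL-33. *Rad50* was called higher, with 23.9 ± 3.04 FPKM in ILC2IL-33 (SD, n = 2) and 10.4 ± 1.59 FPKM in ILC2PBS (SD, n = 3), which is a log2 difference of 1.20 (limma, adjusted p = 0.00378). *P4ha2*, encoding a collagen-modifying enzyme, was called lower, at -2.54 (limma, adjusted p = 3.83e-04). Between ILC210 and ILC2act, 8 were tested. The nearest entry before *Csf2* by coordinate, *4933405E24Rik* (54177772 to 54213288), had 0.0995 to 0.663 FPKM in ILC210 and 3.82 to 6.15 FPKM in ILC2act. Every ILC210 library lay under the floor, so this entry was tested only through the ILC2act libraries and is given as levels only. *Irf1*, encoding an interferon-induced transcription factor next to *Il5*, was called higher, with 98.1 ± 6.28 FPKM in ILC210 and 44.7 ± 9.22 FPKM in ILC2act (SD, n = 3 each), which is a log2 difference of 1.15 (limma, adjusted p = 5.66e-04). *Il3*, on the far side of *Csf2*, was too low to be tested.

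**Figure D5:**
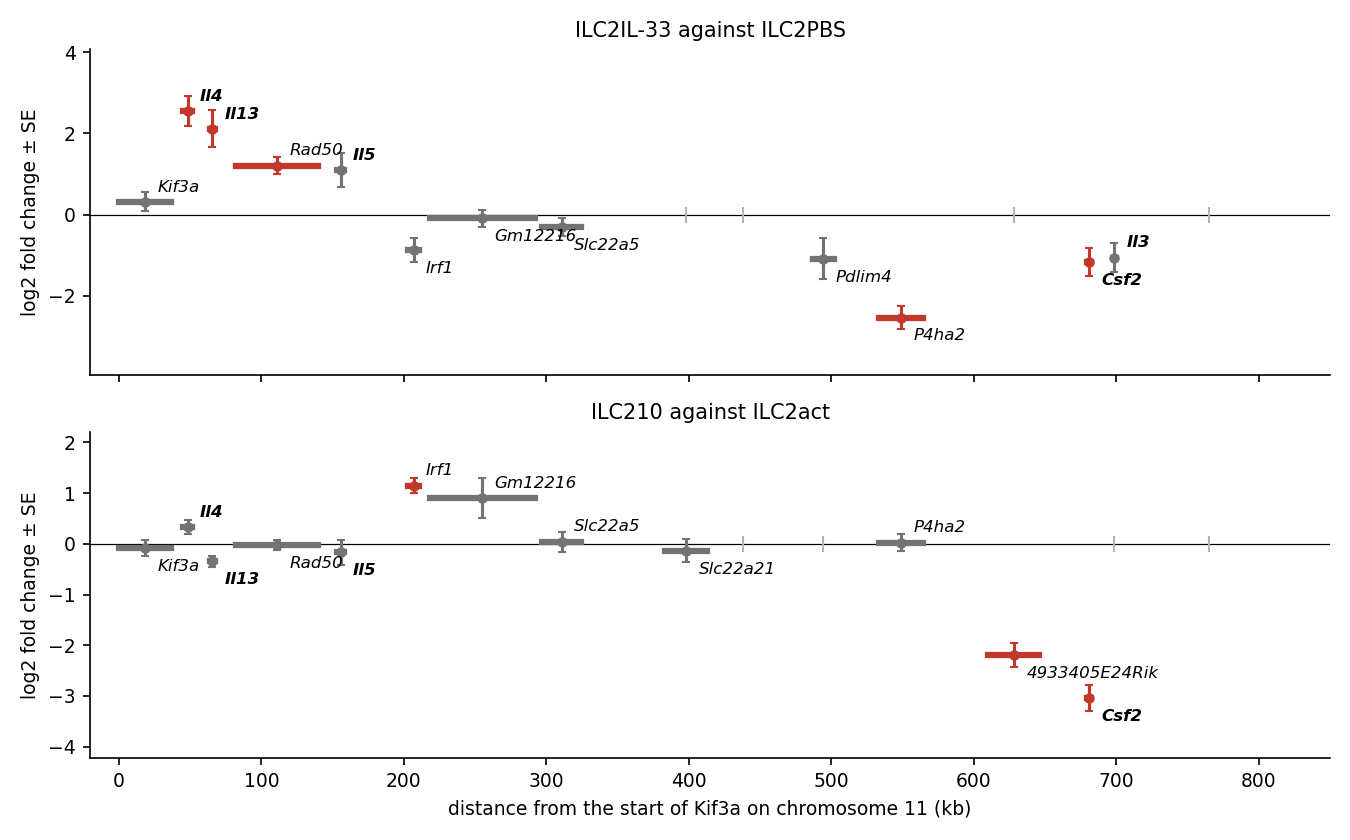
Log2 fold changes with standard errors (vertical axes) of the entries between *Kif3a* and *Acsl6*, by distance from the start of *Kif3a* in kb, in ILC2IL-33 against ILC2PBS (top) and ILC210 against ILC2act (bottom). Horizontal bars span each entry, red marks a called entry, grey ticks on the zero line mark entries not tested, and members are in bold. *Csf2* and *4933405E24Rik* stand below 0 at the right of the lower panel, at -3.04 and -2.19. The value of *4933405E24Rik* rests on ILC210 levels that were all set to the floor.

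*Il6* and *Areg* lie elsewhere, on chromosome 5 at 30013161 to 30019968 and 91139615 to 91148432, and *Il9* on chromosome 13 at 56479277 to 56482246. No other entry of the table overlaps any of the 8. Of 7 other IL-6 family ligands, 3 could be tested, and *Lif*, encoding leukaemia inhibitory factor, was called lower in ILC210, with 38.6 to 53.3 FPKM there and 90.5 to 139 FPKM in ILC2act (n = 3 each, log2 fold change -1.32, limma adjusted p = 9.66e-04), while none of the 3 was called after IL-33. Of 6 other EGF family ligands, 2 were tested after IL-33 and 1 between ILC210 and ILC2act. *Hbegf*, encoding heparin-binding EGF-like growth factor, had 0.509 and 0.558 FPKM in ILC2IL-33 and 9.25 to 14.1 FPKM in ILC2PBS. Both ILC2IL-33 libraries lay under the floor, so *Hbegf* was tested there only through the PBS libraries and is given as levels only. It was called higher in ILC210 (2.88 ± 1.23 FPKM) than in ILC2act (0.842 ± 0.324 FPKM, SD, n = 3 each), whose mean lay under the floor. In both comparisons *Hbegf* moved in the direction of the epithelial and macrophage marker sums given above, and their part in its change was not tested.

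Among 26 other cytokine genes, 17 were tested between ILC210 and ILC2act, of which 4 were called higher and 5 lower, with a median log2 fold change of -0.14. Of all genes tested between these groups, 9.24% were called higher and 1.05% lower. *Tnf*, encoding tumour necrosis factor, was at 1.62 ± 1.35 FPKM in ILC210 and 38.8 ± 15.2 FPKM in ILC2act, and *Il2*, encoding a T cell growth factor, at 0.977 ± 0.350 FPKM in ILC210 and 18.3 ± 8.43 FPKM in ILC2act (SD, n = 3 each). Their log2 fold changes were -4.58 and -3.95 (limma, adjusted p = 1.72e-04 and 4.56e-05). *Csf2*, *Tnf*, *Il2* and *Lta* thus lay in the direction of the T cell marker sum, which was mostly *Cd3g* and whose part was not tested. In mean FPKM in ILC210 and ILC2act, *Cd3g* (20.9 and 101), *Cd3e* (1.54 and 5.93) and *Cd28* (2.78 and 3.43) were lower in ILC210. The low values of *Cd3d* (1.22 and 1.11), *Cd4* (0.332 and 0.0357), *Cd5* (0.362 and 0.276) and *Cd8a* (0.261 and 0.146) went the other way. Also called lower were *Lta* (-2.78), *Ltb* (-1.86) and *Tnfsf11* (-2.62), of the tumour necrosis factor family, and called higher were *Il10* (3.39), the gene the sort was made for, *Il1b* (3.33), *Il33* (3.66) and *Vegfa* (3.15), named here after their values were seen. *Il1b*, *Il33* and *Vegfa* were called lower after IL-33 (-4.91, -3.57 and -3.80), so that they too moved with the marker sums of other lung cells. After IL-33, 18 were tested, 2 were called higher and 11 lower, with a median of -1.29, where 8.22% of all genes tested were called higher and 18.0% lower. *Il10* had the largest change, with 116 ± 17.7 FPKM in ILC2IL-33 (SD, n = 2) and 0.386 ± 0.291 FPKM in ILC2PBS (SD, n = 3). Every ILC2PBS library lay under the floor, so *Il10* was tested there only through the IL-33 libraries. The counts given here include such genes. Among those called lower *Il1b*, a cytokine of myeloid cells, had the largest change (limma, adjusted p = 4.05e-05). In Treg cells 9 were tested and 3 called higher, namely *Il10*, *Il18* and *Penk*, the proenkephalin gene, with 151 ± 28.1 FPKM in Treg10+ and 39.3 ± 8.62 FPKM in Treg10- (SD, n = 2 each). Of all genes tested in Treg cells, 1.37% were called in either direction.

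Receptor genes for the 8 products were called mostly lower after IL-33, the direction in which the marker sums of other lung cells also moved. Of 13 receptor genes 11 were tested, 1 was called higher and 6 lower, with a median log2 fold change of -1.15. Of all genes tested there, 8.22% were called higher and 18.0% lower. *Il6st*, encoding the shared IL-6 receptor subunit gp130, was at 2.08 ± 0.690 FPKM in ILC2IL-33 (SD, n = 2), against 30.2 ± 6.13 FPKM in ILC2PBS (SD, n = 3), and *Il13ra1*, a receptor chain for IL-13, at 0.185 ± 0.0246 FPKM in ILC2IL-33 (SD, n = 2), against 6.58 ± 1.47 FPKM in ILC2PBS (SD, n = 3). The log2 fold change of *Il6st* was -3.89 (limma, adjusted p = 8.99e-05). *Il13ra1*, *Csf2rb* and *Il6ra*, also among those called lower, lay under the floor in both ILC2IL-33 libraries and were tested only through the PBS libraries. The gene called higher, named after its values were seen, was *Il3ra*, the IL-3 receptor chain, at 1.06 (limma, adjusted p = 0.0105). Between ILC210 and ILC2act 8 were tested and 1 was called, *Il6st*, with 27.3 ± 5.31 FPKM in ILC210 and 4.68 ± 0.775 FPKM in ILC2act (SD, n = 3 each; log2 fold change 2.54, limma adjusted p = 3.39e-05). Of all genes tested between these groups, 9.24% were called higher and 1.05% lower. The 6 genes called lower after IL-33, namely *Il6st*, *Il13ra1*, *Il6ra*, *Csf2ra*, *Csf2rb* and *Il4ra*, all averaged higher in ILC210 than in ILC2act. In both comparisons they thus moved in the direction of the marker sums of other lung cells, whose part was not tested.

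Most transcription regulators known to act at these genes were not called, as held for most genes tested. Of 30 listed, 29 were in the tables and tested. After IL-33, 2 were called higher and 3 lower, where 8.22% of all genes tested were called higher and 18.0% lower. In ILC210, 2 were called higher and 1 lower, where 9.24% of all genes tested were called higher and 1.05% lower. *Batf*, an AP-1 family factor, was at 154 ± 36.4 FPKM in ILC2IL-33 (SD, n = 2), against 26.7 ± 4.26 FPKM in ILC2PBS (SD, n = 3), which is a log2 difference of 2.52 (limma, adjusted p = 1.56e-04), and 137 ± 9.57 FPKM in ILC210 and 163 ± 11.1 FPKM in ILC2act (SD, n = 3 each), which did not pass. *Jun*, another AP-1 subunit, was called lower after IL-33, at -2.52 (limma, adjusted p = 3.05e-04), and higher in ILC210, at 1.30 (limma, adjusted p = 0.00668). *Klf2*, a factor of resting lymphocytes, was called higher in ILC210, with 163 ± 13.3 FPKM there and 43.7 ± 9.97 FPKM in ILC2act (SD, n = 3 each; log2 fold change 1.92, limma adjusted p = 5.79e-05). The other regulators called, named after their values were seen, were *Irf4* (1.74), *Klf2* (-2.49) and *Cebpb* (-1.52) after IL-33 and *Irf4* (-1.27) in ILC210. In both comparisons *Jun* and *Klf2* moved in the direction of the epithelial, macrophage and endothelial marker sums. The part of other lung cells in these changes was not tested. *Gata3*, the factor that directs type 2 cytokine genes, was at 335 ± 69.0 FPKM in ILC210 and 350.1 ± 30.4 FPKM in ILC2act (SD, n = 3 each), which is a log2 difference of -0.08 (limma, adjusted p = 0.803).

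Against Treg cells, *Fos* and *Fosl2*, which encode AP-1 subunits, led the regulators. *Fos* averaged 506 FPKM in ILC210 and 3.95 FPKM in Treg10+, and 587 FPKM in ILC2act and 3.64 FPKM in Treg10-. *Fosl2* averaged 56.4 FPKM in ILC210 and 0.435 FPKM in Treg10+, and 56.8 FPKM in ILC2act and 0.354 FPKM in Treg10-. Of the 29 regulators tested, 10 were called higher and 2 lower in ILC210 than in Treg10+, and 11 higher and 3 lower in ILC2act than in Treg10-. Of all genes tested, 12.5% were called higher and 7.25% lower in ILC210, and 7.89% higher and 8.53% lower in ILC2act. Of 9 receptor genes tested, 0 were called higher and 1 lower in ILC210, and 1 higher and 3 lower in ILC2act. *Il6ra*, the IL-6 binding receptor chain, averaged 1.60 FPKM in ILC210 and 11.1 FPKM in Treg10+ (limma, adjusted p = 2.02e-04). It averaged 0.0896 FPKM in ILC2act and 17.3 FPKM in Treg10-, given as levels only because every ILC2act library lay under the floor. Of 18 other cytokine genes tested, 7 were called higher and 4 lower in ILC210, and 9 higher and 2 lower in ILC2act. *Calca*, which encodes calcitonin gene-related peptide, averaged 57.6 FPKM in ILC210 and 61.8 FPKM in ILC2act and was listed at 0 in all 4 Treg libraries. The counts of called genes given here include genes under the floor in the lower group, such as *Fosl2* and *Calca* in Treg cells. Calls of such genes were fixed by the filter, as for the members above.

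Over the 10 reporter libraries, genes whose log2 levels were most like those of each member were read as a description, with Pearson's r over 10 libraries among 9867 genes. All points share the difference between ILC2 and Treg libraries, which these r values include. *Il13* was most like *Fos*, *Tnfaip3* and *Slc6a13* (r of 0.9991, 0.9990 and 0.9988), and *Il5* was most like *Hs3st1*, *Tnfaip3* and *Il13* (0.9991, 0.9985 and 0.9985). *Areg* was most like *Fam46a*, *Il4* and *Nfkbia* (0.998, 0.995 and 0.995), and *Il4* like *Nxpe4*, *Fam46a* and *Hist1h1c* (0.996 each). *Csf2* had *Tuba8*, *AI836003* and *Qpct* (0.9991, 0.997 and 0.996). These 3 genes were picked over the same libraries, so their lower means in ILC210 than in ILC2act are no separate result. The means were 4.62 and 9.70 FPKM for *Tuba8*, 21.7 and 63.3 FPKM for *AI836003*, and 3.57 and 6.37 FPKM for *Qpct*. *Il6* had *Spon2*, an entry whose symbol had been turned into a date, and *Birc3* (0.996, 0.995 and 0.9925).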

How the data were processed

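RNA sequencing libraries of sorted pools of mouse cells were used, 5 in one table and 10 in another. The authors deposited FPKM per gene, made with TopHat2 2.1.0 and Cufflinks 2.2.1 on GRCm38 per the submitters' processing notes. The reporter table, deposited with other text in its FPKM columns, lists 23846 entries, of which 312 marked as low data and 5 without values were left out, leaving 23529. There 0.001 stands for 0. Of the symbols, 27 had become dates. Columns of no sample numbered 0. FPKM hold no counts. Low FPKM fell on steps, with 69.6 to 78.8% of values under 3.5 steps within 0.15 of a whole step. If fragments were 200 bases long, 1 read of *Il9* was worth 0.124 to 0.343 FPKM.

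FPKM below 1 were set to 1, and a gene was tested if its libraries above 1 FPKM numbered no fewer than the smaller group, with limma 3.58.1 (R 4.3.3, eBayes with a trend) on log2 values, with Benjamini-Hochberg adjustment. The ILC2 to Treg comparisons used all 10 reporter libraries. The scripts were tested on simulated data. Python 3.11.15, pandas 2.3.3, numpy 2.4.6 and matplotlib 3.10.9 were used. The members and gene lists were chosen with earlier results of these data known. Every member was named, and from each list the 2 genes of largest absolute change among those called in a comparison, with other genes marked where named after their values were seen.

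Deviations from group means correlated over genes by 0.328, 0.255 and 0.145 in ILC2 libraries of consecutive numbers and by -0.256 to 0.0476 in other ILC2 pairs, so the consecutive libraries were treated as pairs in an alternative fit. For Treg libraries, 2 in each group fix this correlation by construction (0.342 for shared title tags). Alternatives were pseudocounts of 1 and 0.1, no filter, a mean of at least 5 FPKM, quantile or median scaling, no fold threshold, a per-gene equal-variance test, blocks and leaving out libraries.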

Additional observations from a re-analysis of the deposited data

Results flagged for a closer look

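*Csf2* met a rule for a differing change between cell types, but no difference between lung ILC2 and splenic Treg cells was shown. The log2 change in ILC210 against ILC2act minus that in Treg10+ against Treg10- was -3.04 (standard error 0.38, adjusted p = 8.29e-04 from limma over 12475 genes). All 4 Treg libraries held at most 0.253 FPKM of *Csf2*, under the floor of 1, so the Treg change was set to 0 and the value repeats the ILC2 change.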

How the results depend on the processing

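With 2 or 3 libraries a group, p-values measure the spread between these pools. Counts of called genes moved as follows. After IL-33, 4 of the 8 genes were called. This became 2 with no filter on low values, 1 in the per-gene equal-variance test, 1 to 4 with 1 library left out, and 2 without both ILC2PBS libraries 1 and 2. Between ILC210 and ILC2act, the count of 1 became 0 in the per-gene test. Between Treg10+ and Treg10- it was 0, and became 1 with the title tag as a replicate block. Between ILC210 and Treg10+ it was 6, of which 5 were fixed by the filter, and became 3 in the per-gene test. In the other comparisons and alternatives run the count stayed within 1.5 times. Of the alternative values of single genes, 515 kept their side of the threshold, 22 lost a call, 5 gained one and 0 changed the sign of a called value. Uncalled values changed sign for *Il4* in the difference of the reporter changes, at 0.33 without Treg10+ library 6, and for *Il5* there, at 0.04 without ILC210 library 2. The replicate block by consecutive library numbers or by title tag changed no other call. Where an arm was left with 1 library, that library was assumed to vary like the other group. The causes were not tested. Low values limit *Il9* and *Il3*, whose levels rest on few reads.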
